A study of Rattus norvegicus with 24 samples.

Results

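The release machinery described here is the set of genes that dock, prime and fuse synaptic vesicles at the presynaptic membrane. Members were the protein coding genes whose symbol belongs to the synaptotagmins, syntaxins, syntaxin-binding proteins, VAMPs, SNAPs, RIMs, ERCs, Unc13 proteins, complexins, SV2 proteins, synapsins and Rab3 GTPases, with Bsn and Pclo. The rule used symbols and biotype and no measured value, though members were chosen with earlier results of these data known. It gave 74 of the 32545 genes in the table. The symbol rule also took in Snap91, which encodes the clathrin adaptor AP180 and is no SNARE protein. Sv2b was left out because the table types it as a processed transcript.

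In a nerve terminal, the vesicle SNARE synaptobrevin (VAMP) zippers up with the target SNAREs syntaxin and SNAP-25 to pull the vesicle onto the plasma membrane. Munc13 (Unc13) proteins prime this complex, complexins clamp and assist it, and synaptotagmins trigger fusion when calcium enters. RIM, ERC, bassoon and piccolo form the active zone, the scaffold that holds primed vesicles beside calcium channels, and synapsins and Rab3 proteins keep vesicles in reserve and deliver them. In the nucleus accumbens (NAc), a striatal centre of reward, most neurons are GABAergic medium spiny neurons. The NAc also receives glutamatergic axons from the cortex, whose cell bodies, and so most of whose mRNA, lie outside it.

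RNA-seq of the NAc, core and shell together, was measured in adult male Sprague Dawley rats, 8 weeks old on arrival, in 6 groups of 4 libraries. In the injection experiment, pair-housed rats received 5 injections of saline or of lipopolysaccharide (LPS, a bacterial cell wall component that sets off inflammation) at 250 µg/kg, and later daily injections of saline or heroin. The heroin dose rose from 1 to 5 mg/kg over 5 days. Groups were named by the first and the second treatment (Saline-Saline and LPS-Saline, then Saline-Heroin and LPS-Heroin). Tissue was taken about an hour after the last injection and, per the methods, a locomotor session. In the self-administration experiment, singly housed rats with jugular catheters on a reversed light cycle took saline (Saline-SA) or heroin at 0.075 mg/kg per infusion (Heroin-SA) for 6 h a day in 10 sessions and were killed directly afterwards. The labels name no genetic change. The labels call the libraries biological replicates without naming the animals. P-values measure the spread between these libraries.

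Levels are given as FPKM, fragments scaled to gene length and library size, which corrects for gene length and so allows comparison between genes. Between 12312878 and 18850240 reads fell on genes in each library. All 12 medium spiny neuron markers were detected in every library, with Ppp1r1b (DARPP-32) at 830.7 FPKM on average. Markers of neighbouring tissue varied between libraries. The summed level of 9 cortical glutamatergic markers ran from 166 to 394 FPKM in Saline-Saline, 182 to 514 in LPS-Saline, 226 to 563 in Saline-Heroin, 485 to 585 in LPS-Heroin, 126 to 364 in Saline-SA and 114 to 527 in Heroin-SA, and none of the 9 was at 0 in any library. In 6 libraries (Saline-Saline 1 and 3, LPS-Saline 3, Saline-Heroin 2, Saline-SA 3 and Heroin-SA 4) their mean log2 level was 1.82 to 2.79, and in the other 18 it was 3.05 to 4.41. Choroid plexus markers summed to 333 FPKM in Saline-Saline 1 and to at most 31.5 in any other library. Saline-SA 3 and 4 stood apart from Saline-SA 1 and 2. Their mitochondrial reads were 15.9% and 14.1%, against 10.0% to 11.8% in the other 6 self-administration libraries, and their reads differed from those of Saline-SA 1 and 2 by a chi-square per gene of 26.8 to 32.1, against 8.86 between Saline-SA 1 and 2. In bulk tissue, fewer cells of a type and less RNA per cell cannot be told apart.

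The release machinery took 1.03% to 1.40% of the reads on genes in each library. Its levels spanned 4 classes. 11 members averaged over 100 FPKM across the 24 libraries, 39 lay between 10 and 100, 20 between 0.5 and 10, and 4 (Stx11, Syt8, Cplx4 and Syt15) below 0.5. In the plot of levels by role, 7 of the 11 roles show at least 1 member above 100 FPKM.

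**Figure D1:**
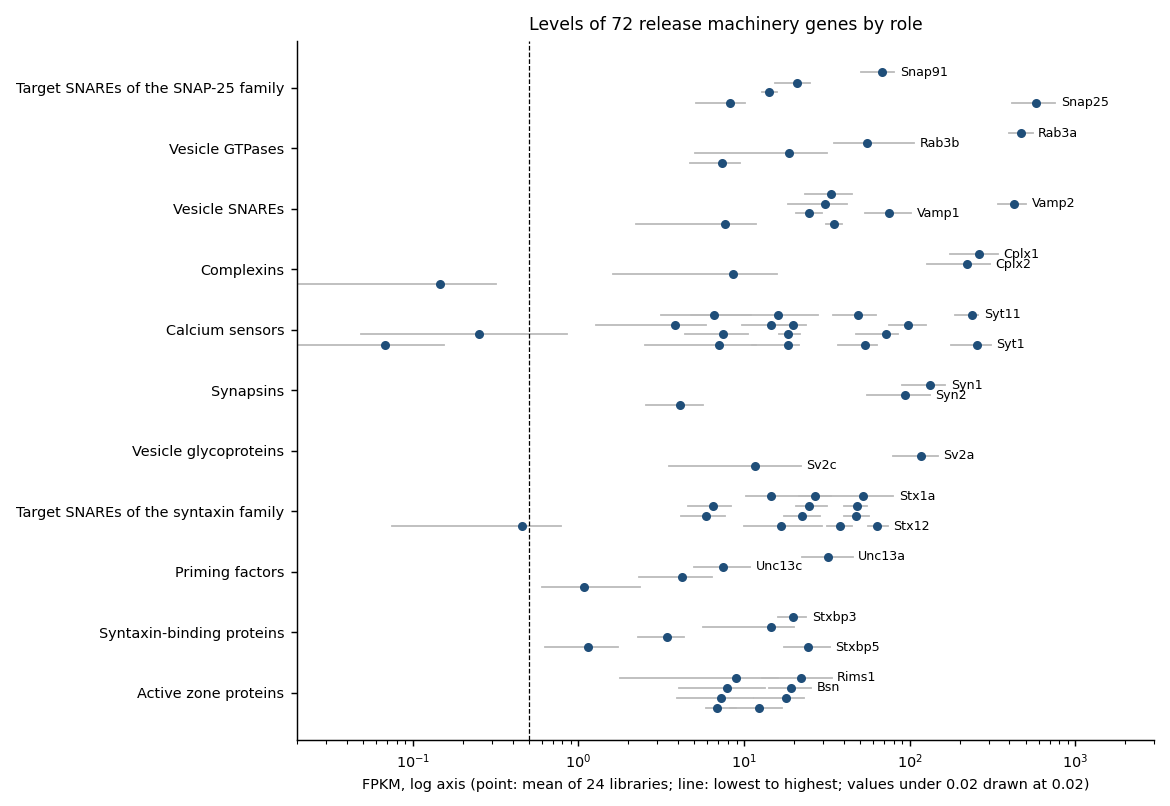
Mean FPKM over 24 libraries (points, log axis) of 72 members by role, with lines from the lowest to the highest library and a dashed line at the 0.5 FPKM filter. 2 members are not drawn, the 2 highest drawn members of each role are labelled, and Snap25, Rab3a and Vamp2 lie furthest to the right.

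The core fusion complex was the most abundant. Snap25 (ENSRNOG00000006037, rn6 chromosome 3, 129599353 to 129788400), the neuronal membrane SNAP, averaged 578 FPKM ± 83.7 (SD, n = 24). Vamp2 (synaptobrevin 2) averaged 424 ± 41.6 and its relative Vamp1 reached 0.156 to 0.204 of it in the group means. The neuronal syntaxin Stx1a stood at 52.3 ± 17.3 FPKM, with a wide spread that recurs in the comparisons.

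The regulators followed at lower levels. Rab3a, the main vesicle Rab of neurons, averaged 472 FPKM ± 40.4. The complexins Cplx1 and Cplx2 averaged 261 ± 47.8 and 222 ± 41.7, Cplx3 8.54 ± 4.21, and Cplx4 was below the filter. Syt1, the fast calcium sensor, averaged 254 ± 34.8, against 6.57 ± 2.55 for its relative Syt2. The synapsins Syn1 and Syn2 averaged 132 ± 15.3 and 93.1 ± 20.6, and the vesicle glycoprotein Sv2a 116 ± 18.4. No active zone or priming gene averaged above 100 FPKM. Unc13a (Munc13-1) averaged 32.1 ± 5.98, Rims1 22.1 ± 5.31, Bsn (bassoon) 19.1 ± 2.95, and Erc2 (ERC2, also called CAST) 8.96 ± 4.50.

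Members differed widely in how much they varied. Across the 24 libraries the coefficient of variation was 50.2% for Erc2, 49.3% for Cplx3, 49.2% for Rab3c and 43.0% for Sv2c, a vesicle glycoprotein of the basal ganglia. At the other end it was 6.03% for Vamp3, 6.2% for Snap29 and 6.34% for Syt11. These figures pool both experiments and so include any gap between them. Mean levels in the injection and the self-administration libraries were 11.6 and 3.68 FPKM for Erc2 and 24.3 and 7.27 for Rab3c. Those of Sv2c were 14.3 and 6.46, and those of Cplx3 8.86 and 7.91. The values of Erc2 rested on 61 to 687 recovered reads per library and those of Cplx3 on 79 to 915, against 12072 to 24381 for Snap25.

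RefSeq promoter windows of 300 bases, 250 before and 50 after a transcript start in the GRCr8 build, were found by symbol for 59 of the 74 members. The GC box GGGCGG, searched on both strands, lay in the windows of 44 of these 59 (74.6%), against 44.1% of 19005 protein coding genes. The TATA box TATAAA was found for 3 of 59 (5.08%), against 14.0% of all genes, and the cyclic AMP response element TGACGTCA for 2 of 59 (3.39%: Syn1 and Vamp1), against 2.28%. The median GC content was 63.2% in the members' 72 windows and 55% in all 21851. A match is a run of letters and no measured binding. The windows of Erc2, Stx1a and Cplx2 are shown because the results turn on these members. Capitals mark GC boxes on either strand, 2 in Erc2 (chr16:2819262-2819561, plus strand), 4 in Stx1a (chr12:27306422-27306721, minus strand) and 1 in Cplx2 (chr17:10236704-10237003, minus strand).
Erc2: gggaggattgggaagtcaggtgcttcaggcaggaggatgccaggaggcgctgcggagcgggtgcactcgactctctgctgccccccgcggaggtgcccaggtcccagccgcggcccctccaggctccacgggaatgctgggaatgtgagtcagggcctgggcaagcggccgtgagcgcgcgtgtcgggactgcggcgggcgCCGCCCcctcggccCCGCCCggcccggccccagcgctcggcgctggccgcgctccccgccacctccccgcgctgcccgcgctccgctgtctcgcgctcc
Stx1a: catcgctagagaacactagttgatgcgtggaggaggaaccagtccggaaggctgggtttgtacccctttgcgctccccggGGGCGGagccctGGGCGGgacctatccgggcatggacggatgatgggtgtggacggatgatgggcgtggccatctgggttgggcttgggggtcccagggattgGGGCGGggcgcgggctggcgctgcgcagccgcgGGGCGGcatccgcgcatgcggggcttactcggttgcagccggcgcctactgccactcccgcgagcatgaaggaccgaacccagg
Cplx2: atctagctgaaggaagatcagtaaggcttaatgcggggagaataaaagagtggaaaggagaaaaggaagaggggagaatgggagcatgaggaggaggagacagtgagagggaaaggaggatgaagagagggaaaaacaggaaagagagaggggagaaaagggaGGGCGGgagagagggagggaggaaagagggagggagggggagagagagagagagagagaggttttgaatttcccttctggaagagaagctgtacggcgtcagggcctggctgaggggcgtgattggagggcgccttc

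The groups were compared by limma-trend on log2(FPKM + 0.1) over genes with a mean of at least 0.5 FPKM in the libraries compared, which 70 members passed (71 in the self-administration comparison). A gene was called at an unadjusted p of at most 0.05 and a log2 fold change of at least 0.378 in either direction (1.3-fold), the limits of the study's pattern analyses. No member had an adjusted p (limma, Benjamini-Hochberg over all genes tested) of 0.05 or less in any of the 9 comparisons, with limma-trend or with limma-voom on recovered reads, and every call below is an unadjusted one. Members with an unadjusted p of at most 0.05, whatever the fold, were counted in the 6 pairwise comparisons. In the order of the heatmap of fold changes, they numbered 10, 9, 13, 0, 3 and 10 by limma-trend and 7, 9, 14, 0, 3 and 13 by limma-voom. Over all genes, limma-trend gave 1002 of 15119, 995 of 15143, 1704 of 15134, 693 of 15069, 637 of 15121 and 1725 of 15024. The limma-voom counts over all genes are not given. Called members whose groups overlapped, and members without overlap that missed the fold limit, were named after their values were seen.

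**Figure D2:**
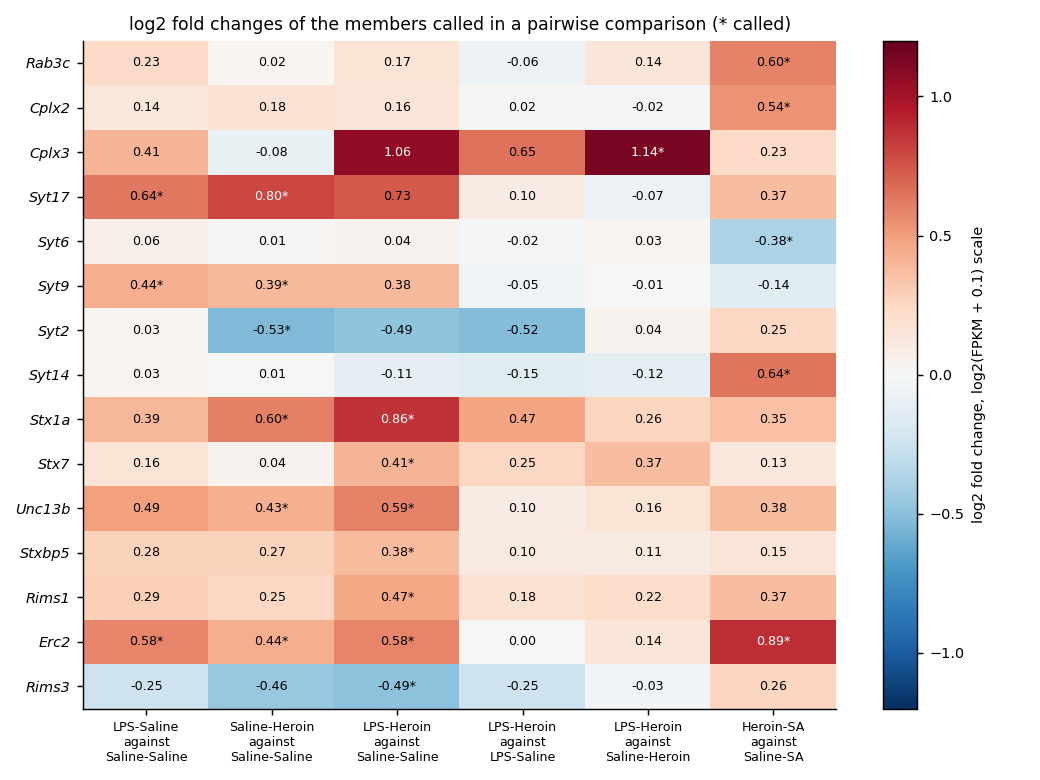
log2 fold changes (colour and number, log2(FPKM + 0.1) scale) of the 15 members called in at least 1 of the 6 pairwise comparisons (columns), in which an asterisk marks a call. Erc2 is called in 4 columns, and the first 3 columns share the Saline-Saline libraries.

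The first question was how the release machinery stood after LPS alone. 3 of 70 members were called higher in LPS-Saline than in Saline-Saline, all by modest amounts, and none lower. Over all 15119 genes tested, 1.21% were called higher and 1.16% lower. The members were Erc2, a scaffold of the active zone, and the synaptotagmins Syt17 and Syt9. The median log2 fold change of the 70 members was 0.06, against 0.01 over all genes, and 54 members had a positive value.

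Erc2 (ENSRNOG00000015148, rn6 chromosome 16, 3293599 to 3679222, plus strand, no overlapping gene) was at 7.21, 10.3, 8.27 and 8.66 FPKM in Saline-Saline and at 14.9, 12.5, 12.4 and 11.7 in LPS-Saline. Every LPS-Saline library lay above every Saline-Saline library. The log2 fold change was 0.58 ± 0.12 (SE, unadjusted p = 0.000984, limma adjusted p = 0.62), with an exact permutation p of 0.0286, the smallest that 4 against 4 libraries allow. Erc2 stayed called when any 1 library was left out. It was also called without the libraries lowest in cortical markers (0.45) and with the cortical marker level as a covariate (0.54). Markers of septum and ventral forebrain summed to 48.8 to 107 FPKM in Saline-Saline and 31.3 to 75.8 in LPS-Saline. No refit used these markers, and their part in the Erc2 value was not tested.

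Its paralog Erc1, which shares the scaffold role but is expressed far beyond neurons, was at 6.17 ± 0.287 FPKM in Saline-Saline and 6.60 ± 0.0989 in LPS-Saline (SD, n = 4). The ratio of Erc2 to Erc1 was 1.40 ± 0.255 in Saline-Saline and 1.95 ± 0.211 in LPS-Saline (exact permutation p = 0.0286, unadjusted for the 7 ratios and 6 comparisons examined). In all 4 LPS-Saline libraries the ratio was above that of every Saline-Saline library.

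Syt17, a synaptotagmin relative that lacks a transmembrane anchor, was at 8.35, 13.0, 8.50 and 17.1 FPKM in Saline-Saline and at 18.6, 22.3, 11.1 and 20.3 in LPS-Saline. The groups overlapped, and the lowest value of each group came from a library low in cortical markers. The call, at a log2 fold change of 0.64, was lost when any of 6 of the 8 libraries was left out. It was kept without the libraries low in cortical markers (0.44) and with the marker level as a covariate (0.40). Syt9, a calcium sensor of fast release, was at 4.39 to 7.06 FPKM in Saline-Saline and 6.67 to 10.5 in LPS-Saline, with overlap. Its log2 fold change was 0.44. That call ended without any one of Saline-Saline 3 or 4 or LPS-Saline 2, 3 or 4. It also ended without the libraries low in cortical markers (0.38) and was kept with the marker level as a covariate (0.53).

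4 members had no overlap between LPS-Saline and Saline-Saline, against 4.11% of all genes tested. Beside Erc2 they were Rims1 (log2 fold change 0.29), Snap47, a SNAP-25 relative of intracellular membranes (0.23), and Stxbp2, a syntaxin-binding protein (−0.14, limma adjusted p = 0.824), all under the fold limit. Abundant genes of fusion were not called. Snap25 had a log2 fold change of 0.17 and Syt1 0.16 (limma adjusted p = 0.813 and 0.792).

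Repeated heroin alone was the second treatment examined, in Saline-Heroin against Saline-Saline. 5 of 70 members were called higher and 1 lower, against 1.4% and 1.67% of 15143 genes. Higher were Stx1a, Syt17, Erc2, Syt9 and Unc13b, and lower was Syt2. The median over members was 0.04, against 0.00 over all genes. 2 members had no overlap between groups, where 3.39% of all genes had none, and neither was among the called ones. They were Stxbp5 (tomosyn, an inhibitor of SNARE assembly), with a log2 fold change of 0.27, and Syt16, with 0.30.

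Erc2 was at 13.1, 9.66, 12.6 and 11.4 FPKM in Saline-Heroin, with a log2 fold change of 0.44 ± 0.13 (SE, limma adjusted p = 0.75, exact permutation p = 0.0571). Only the lowest Saline-Heroin library reached into the range of the controls. The call was lost without Saline-Saline 1 and with the cortical marker level as a covariate (0.31). Stx1a (ENSRNOG00000029165, rn6 chromosome 12, 24682041 to 24710019, minus strand, no overlapping gene), a neuronal syntaxin of the fusion complex, was at 28.0, 54.1, 28.7 and 43.3 FPKM in Saline-Saline and at 78.1, 40.6, 57.0 and 55.7 in Saline-Heroin. The groups overlapped, and 3 low values of Stx1a, at 28.0, 28.7 and 40.6, belonged to the 3 libraries low in cortical markers. Its log2 fold change of 0.60 (limma adjusted p = 0.75, exact permutation p = 0.1429) became 0.38 without those libraries and 0.29 with the cortical marker level as a covariate, and neither of these was a call. The call also ended without any one of Saline-Saline 1 or 3 or Saline-Heroin 1, 3 or 4.

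The other calls after heroin alone rested on few libraries. Unc13b (Munc13-2) was at 3.02, 3.05, 2.33 and 4.22 FPKM in Saline-Saline and 4.27, 3.46, 4.89 and 4.27 in Saline-Heroin (log2 fold change 0.43). Its values overlapped between groups, and a small RNA gene lies inside it on the opposite strand. Syt2, the fast calcium sensor of some inhibitory and hindbrain neurons, was at 6.03, 8.18, 8.75 and 10.7 FPKM in Saline-Saline and 4.95, 6.21, 4.17 and 8.13 in Saline-Heroin. Its log2 fold change was −0.53, with overlapping groups. Each of the calls of Unc13b and Syt2 was lost without any one of 6 libraries. Syt17 (0.80) was lost without any one of 4 libraries, Saline-Saline 1 or 3 or Saline-Heroin 1 or 3, and Syt9 (0.39) without any one of 5. Leaving out the libraries low in cortical markers ended the calls of Unc13b (0.31), Syt17 (0.56) and Syt9 (0.45), and kept that of Syt2 (−0.75). This refit dropped Saline-Saline 1 and 3 and Saline-Heroin 2. The marker level as a covariate ended the calls of Unc13b (0.26), Syt2 (−0.51) and Syt9 (0.41), and kept that of Syt17 (0.46).

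After both treatments more genes were called, in LPS-Heroin against Saline-Saline, and so were more members. 6 of 70 members were called higher and 1 lower, against 2.99% and 2.44% of 15134 genes. Higher were Stx1a, Stxbp5, Rims1, Stx7, Erc2 and Unc13b, and lower was Rims3. The median log2 fold change over members was 0.06, against 0.00 over all genes, and 53 members had a positive value. The comparison shared its control libraries with both single treatments, so calls that recur in them are not independent.

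The cortical markers moved with this comparison. 7 of 9 tested cortical glutamatergic markers were called higher and none lower, and their summed level, 485 to 585 FPKM in LPS-Heroin, did not overlap that of Saline-Saline. 4 of 6 markers of septum and ventral forebrain were called lower. With the cortical marker level as a covariate none of the 7 members was called, and without the 2 Saline-Saline libraries low in these markers only Stx1a was. Without those libraries and with the covariate, the log2 fold change of Stx7 was 0.41 and 0.42 (0.41 as reported). Stxbp5 had 0.37 and 0.34 (0.38), and Rims3 −0.41 and −0.39 (−0.49). Larger drops were seen for Stx1a at 0.48 and 0.25 (0.86) and Unc13b at 0.38 and 0.16 (0.59). Erc2 had 0.44 and 0.33 (0.58), and Rims1 0.33 and 0.23 (0.47). The groups did not overlap in marker level, so the covariate and the treatment cannot be told apart. How far the cortical share of the tissue contributed was not tested beyond these refits.

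Stx1a was at 70.4, 63.8, 64.8 and 71.5 FPKM in LPS-Heroin. Their SD of 3.89 was the smallest of the 6 groups, and each value lay above all 4 Saline-Saline libraries. The log2 fold change was 0.86 ± 0.20 (SE, p = 0.00175, limma adjusted p = 0.198, exact permutation p = 0.0286). The call held when any 1 library was left out. The value was 0.48, still a call, without the libraries low in cortical markers and 0.25, no longer a call, with the marker level as a covariate. In the plot of members beside the cortical markers, the libraries with few marker reads also have the lowest Stx1a, in both experiments.

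**Figure D3:**
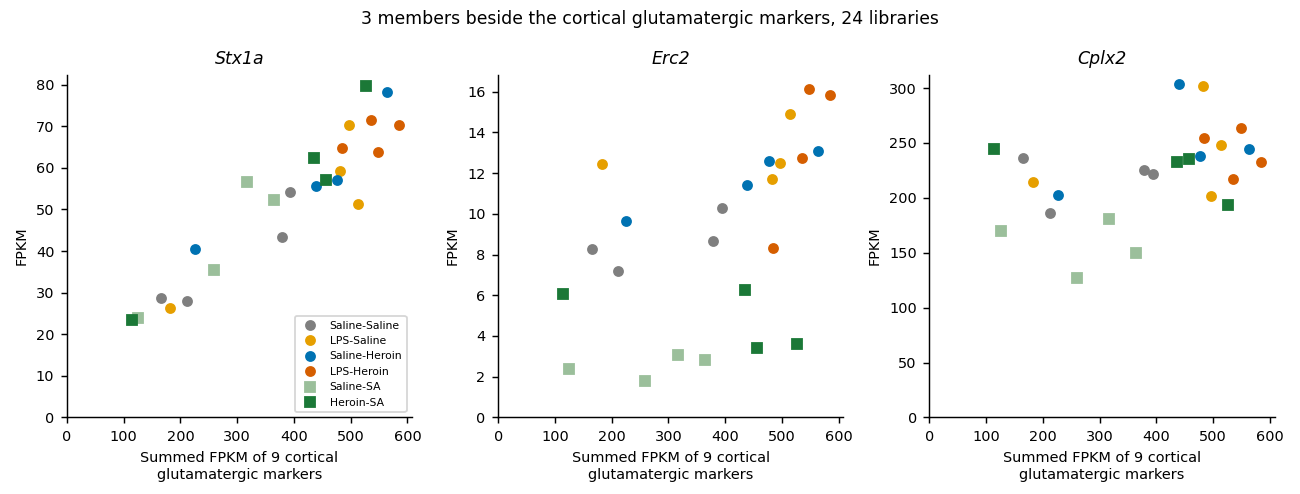
FPKM of Stx1a, Erc2 and Cplx2 (vertical axes) against the summed FPKM of 9 cortical glutamatergic markers (horizontal axes) in the 24 libraries, coloured by group, with squares for self-administration. Stx1a climbs with the markers in both experiments, while Erc2 separates the experiments and Cplx2 in Saline-SA lies below every other library.

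Outside the active zone, Stxbp5 and Stx7 were also called after both treatments. Stxbp5 (tomosyn; rn6 chromosome 1, 3858909 to 4011511) was at 22.3, 20.3, 19.8 and 22.3 FPKM in Saline-Saline and 33.0, 28.3, 24.6 and 25.3 in LPS-Heroin, without overlap, for a log2 fold change of 0.38. It lay just above the fold limit, and a small RNA gene overlaps it on the same strand. The call was lost without any one of Saline-Saline 2 or 3 or LPS-Heroin 1 or 2. Stx7, a syntaxin of late endosomes, was at 15.9, 17.0, 17.0 and 15.9 FPKM against 20.4, 18.3, 20.7 and 29.7, also without overlap. Its log2 fold change of 0.41 was lost without LPS-Heroin 4, the highest library.

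The active zone genes split. Erc2 was at 15.8, 16.1, 8.30 and 12.8 FPKM in LPS-Heroin, where LPS-Heroin 3 fell within the control range (log2 fold change 0.58, limma adjusted p = 0.34). That call was lost without Saline-Saline 1 or LPS-Heroin 1 or 2. Rims1, a RIM protein that docks vesicles and recruits calcium channels, was at 33.7, 31.7, 22.2 and 25.9 FPKM against 18.4, 22.1, 18.5 and 22.3, a log2 fold change of 0.47. Its groups overlapped only at LPS-Heroin 3. The Rims1 call was lost without LPS-Heroin 1.

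Rims3, a short RIM that lacks the zinc finger domain, went the other way. It was at 13.3, 10.8, 9.80 and 9.58 FPKM in Saline-Saline and 6.74, 7.54, 10.2 and 6.52 in LPS-Heroin. The difference was −0.49 on the log2 scale, and again LPS-Heroin 3 was the library that overlapped. Its call held without any 1 library but not without the libraries low in cortical markers. Unc13b had a log2 fold change of 0.59, and its call ended without Saline-Saline 3 or LPS-Heroin 1 or 2. In LPS-Heroin 3, Erc2, Rims1 and Unc13b were the lowest and Rims3 the highest of the group. Leaving that library out raised the count of called members from 7 to 12. The share of all genes called in that refit is not given, so the rise is no result about the members.

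7 members had no overlap between LPS-Heroin and Saline-Saline, against 6.86% of all genes. Beside Stx1a, Stxbp5 and Stx7 they were Syt1, Snap91, Snap47 and Erc1. Syt1 was at 288, 308, 291 and 297 FPKM in LPS-Heroin and at 231, 256, 211 and 272 in Saline-Saline, a log2 fold change of 0.29 (limma adjusted p = 0.231) that did not reach the fold limit. No synapsin was called, at 134 ± 11.6 FPKM for Syn1 and 112 ± 12.9 for Syn2 in LPS-Heroin (SD, n = 4). The ratio of Syn2 to Syn1 was 0.708 ± 0.0443 in Saline-Saline and 0.832 ± 0.0425 in LPS-Heroin (exact permutation p = 0.0286, unadjusted).

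**Figure D4:**
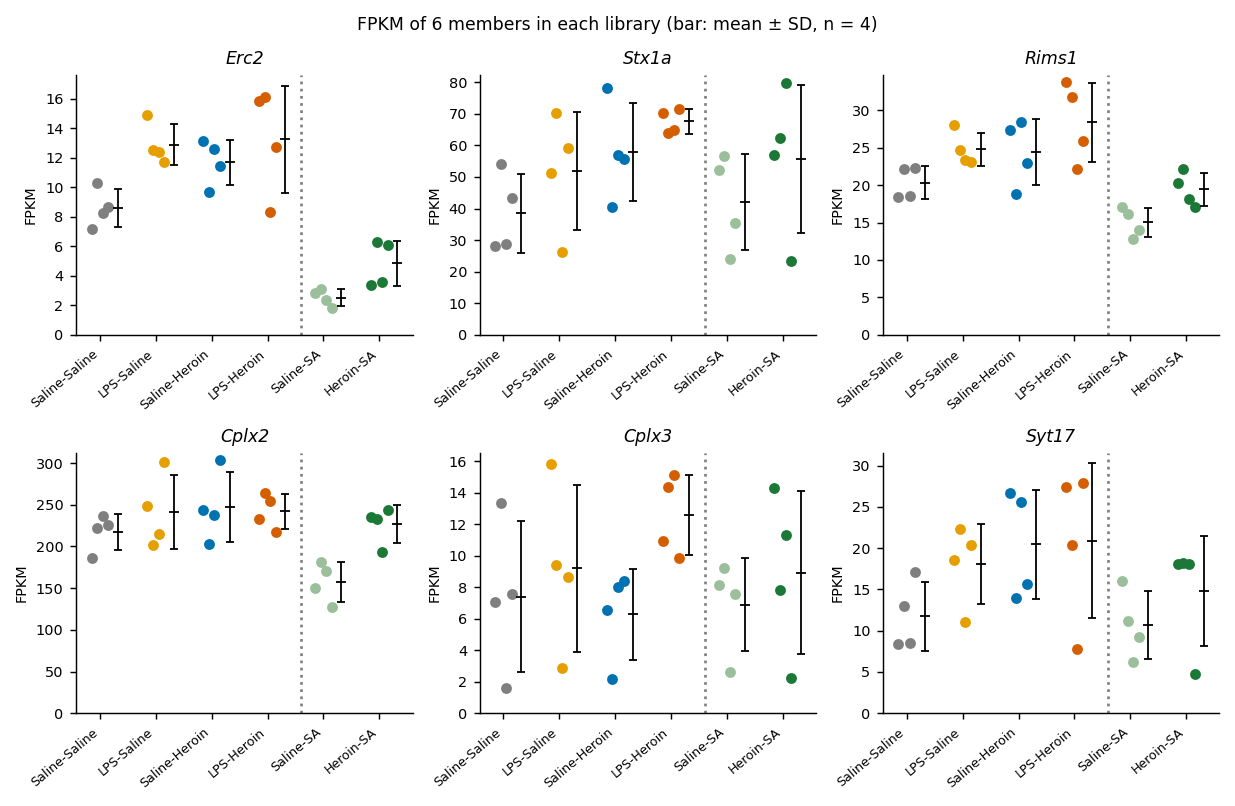
FPKM of 6 members in each library by group, with the mean ± SD (n = 4) beside the points and a dotted line between the injection and the self-administration experiment. Stx1a and Syt17 spread widely within groups, and Erc2 lies lower in all 8 self-administration libraries.

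The direct comparisons asked what the second treatment added to the first. LPS-Heroin against LPS-Saline gave no called member by limma-trend or limma-voom, with 0 at an unadjusted p of at most 0.05, against 1.14% of 15069 genes called higher and 1.15% lower. Erc2 was level between them, with a log2 fold change of 0.00 (limma adjusted p = 1.00). Stx1a was at 51.4, 70.4, 26.2 and 59.3 FPKM in LPS-Saline, a range so wide that its log2 fold change of 0.47 had a limma adjusted p of 0.977. Vamp3 (cellubrevin) was the 1 member without overlap, at a log2 fold change of 0.12, where 2.58% of all genes had none.

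LPS-Heroin against Saline-Heroin gave 1 called member, Cplx3, against 1.2% of 15121 genes called higher and 0.999% lower. Cplx3 (ENSRNOG00000019317, rn6 chromosome 8, 62379502 to 62386264, minus strand), a complexin anchored to membranes that is best known from retinal ribbon synapses and from deep cortical neurons, was at 10.9, 14.3, 15.1 and 9.89 FPKM in LPS-Heroin and 6.54, 2.14, 8.01 and 8.39 in Saline-Heroin. All LPS-Heroin libraries were higher. It was the 1 member without overlap, against 2.37% of all genes. Its log2 fold change was 1.14 ± 0.39 (SE, p = 0.0179, limma adjusted p = 1.00, exact permutation p = 0.0286), and the call held without any 1 library.

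Markers of cortical layer 6b, a deep cortical layer, stood apart in the same comparison. Their summed level was 28.6 to 51.2 FPKM in Saline-Heroin and 54.4 to 74 in LPS-Heroin, and 2 of 4, Ctgf and Nxph4, were called higher. None of the 4 was at 0 in any library. Without Saline-Heroin 2, the library low in cortical markers, the log2 fold change of Cplx3 was 0.70, still a call, and with the cortical marker level as a covariate it was 0.70, no longer a call. The part of layer 6b in the Cplx3 value was not tested.

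Fits over all 16 injection libraries gave few calls. Averaged over heroin, LPS gave no called member by limma-trend or limma-voom, with 9 at an unadjusted p of at most 0.05 by the first and 8 by the second. Of 15113 genes, 1008 had such a p by limma-trend, and 0.926% were called higher and 0.84% lower. Erc2 was at 0.36 ± 0.13 (SE, limma adjusted p = 0.708). Averaged over LPS, heroin gave Stx1a higher (0.54 ± 0.20, limma adjusted p = 0.572) and Syt2 lower (−0.52 ± 0.21, limma adjusted p = 0.586), against 1.08% and 1.38% of genes. Stx1a kept its call without any 1 library, and was no longer called without the libraries low in cortical markers (0.28) or with the marker level as a covariate (0.17). The Syt2 call ended without any one of Saline-Saline 4, LPS-Saline 3, Saline-Heroin 3 or LPS-Heroin 1 or 4, without the libraries low in cortical markers (−0.57) and with the covariate (−0.43). The interaction, the effect of both treatments less that of each alone, gave no called member by either tool and 0 at an unadjusted p of at most 0.05, against 1.26% of genes called higher and 1.05% lower. For Erc2 it was −0.44 ± 0.25 (limma adjusted p = 0.992), and for Stx1a −0.13 ± 0.39 (limma adjusted p = 0.995), so an LPS effect that differs with heroin was not shown for either.

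Voluntary heroin intake was examined in Heroin-SA against Saline-SA. 4 of 71 members were called higher (Cplx2, Erc2, Rab3c and Syt14) and 1 lower (Syt6), against 3.04% and 2.41% of 15024 genes. The median log2 fold change over members was 0.11, against 0.01 over all genes, and 45 members had a positive value. Without Saline-SA 3 and 4, a refit added after seeing the data, 2 members were called. These were Cplx2, higher, and Stx17, a syntaxin of autophagosomes, lower. The median over members was 0.03 in this refit, and the share of all genes called is not given. 6 members had no overlap between groups with all libraries, against 6.8% of all genes. Beside Cplx2 and Erc2 these were the active zone and priming genes Rims1, Bsn, Erc1 and Unc13a.

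Cplx2 (ENSRNOG00000000105, rn6 chromosome 17, 10756285 to 10818835, minus strand, no overlapping gene), a complexin that binds the assembled SNARE complex, was at 150, 181, 170 and 127 FPKM in Saline-SA and 236, 233, 193 and 244 in Heroin-SA. All 4 heroin libraries were higher, and the lowest value came from Saline-SA 4. The log2 fold change was 0.54 ± 0.12 (SE, p = 0.0017, limma adjusted p = 0.272, exact permutation p = 0.0286). The call held without any 1 library, without the libraries low in cortical markers (0.54), with the marker level as a covariate (0.56) and without Saline-SA 3 and 4 (0.45).

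Cplx1, the other abundant complexin, was at 291 ± 29.5 FPKM in Saline-SA and 296 ± 47.7 in Heroin-SA (SD, n = 4). The ratio of Cplx2 to Cplx1 was 0.544 ± 0.0979 and 0.787 ± 0.183, and it overlapped between the groups (exact permutation p = 0.0857). In the injection experiment Cplx2 had log2 fold changes of 0.14, 0.18 and 0.16 against Saline-Saline, none of them called. Whether the change under self-administration differed from these was not tested, since the experiments differ in more than the route of heroin.

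Erc2 was at 2.80, 3.09, 2.38 and 1.79 FPKM in Saline-SA and 3.39, 6.28, 3.61 and 6.08 in Heroin-SA. Again all 4 heroin libraries were higher, and 2 of them lay far above the others. The 2 lowest values came from Saline-SA 3 and 4. The log2 fold change was 0.89 ± 0.26 (SE, p = 0.00692, limma adjusted p = 0.339, exact permutation p = 0.0286), the largest among the members in this comparison. The call held without any 1 library, without the libraries low in cortical markers (0.75) and with the marker level as a covariate (0.92). Without Saline-SA 3 and 4 together the log2 fold change was 0.64 and no longer a call.

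This comparison shares no library with those of the injection experiment, in which Erc2 was called higher in all 3 treated groups. Erc1 moved beside it here, from 6.39 ± 0.300 to 8.33 ± 0.533 FPKM (SD, n = 4), a log2 fold change of 0.38 (limma adjusted p = 0.284) just under the fold limit. The ratio of Erc2 to Erc1 was 0.396 ± 0.0940 in Saline-SA and 0.583 ± 0.191 in Heroin-SA (exact permutation p = 0.2). The remaining members without overlap had log2 fold changes of 0.37 (Rims1), 0.35 (Bsn) and 0.24 (Unc13a). All 6 members without overlap (8.45% of those tested, against 6.8% of all genes) were higher in Heroin-SA. The share of all genes without overlap in that direction was not counted. Values of Rims1, Bsn, Erc1 and Unc13a without Saline-SA 3 and 4 are not given.

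Rab3c, a vesicle Rab close to Rab3a, was at 5.23, 6.33, 6.00 and 5.06 FPKM in Saline-SA and 7.90, 11.3, 5.68 and 10.6 in Heroin-SA. The groups overlapped at Heroin-SA 3. Its log2 fold change of 0.60 was lost without Heroin-SA 2 or 4. Syt14, a synaptotagmin relative that does not bind calcium, had a log2 fold change of 0.64 at 1.28 to 2.46 FPKM in Saline-SA and 2.12 to 4.14 in Heroin-SA, and was lost without any one of 5 libraries. Syt6 was at 20.0, 17.1, 19.1 and 20.5 FPKM in Saline-SA and 14.5, 16.8, 11 and 17.2 in Heroin-SA, a log2 fold change of −0.38 that was lost without any one of 4 libraries and with the cortical marker level as a covariate. Without the libraries low in cortical markers, Rab3c (0.53) and Syt14 (0.61) were no longer called, while Syt6 was (−0.46). With the marker level as a covariate, Rab3c (0.65) and Syt14 (0.71) kept their calls. None of Rab3c, Syt14 and Syt6 was called without Saline-SA 3 and 4.

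Heroin-SA 2 and 4, the libraries highest in Erc2, were also the highest of their group in Rab3c and Syt14. Heroin-SA 3 was at the other end for Cplx2 and Rab3c, and without it 11 members were called, against 5 with all libraries. The share of all genes called without Heroin-SA 3 is not given. Stx1a was at 52.2, 56.6, 24 and 35.4 FPKM in Saline-SA and 57.0, 62.4, 79.6 and 23.5 in Heroin-SA. The lowest value of each group came from its library low in cortical markers, and the difference was not called (0.35, limma adjusted p = 0.745).

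Taken by role, the active zone proteins had mostly positive values, as did the members as a whole. Of the 8 tested (Rims1 to Rims4, Erc1, Erc2, Bsn and Pclo), a positive log2 fold change against the shared Saline-Saline libraries was found for 7 after LPS, 6 after heroin and 7 after both, and 8 in Heroin-SA against Saline-SA. Among all members tested the counts were 54, 49 and 53 of 70, and 45 of 71 in Heroin-SA, and over all genes tested the share of positive values was 50.1% to 51.9%. The role medians were 0.23, 0.16, 0.18 and 0.35, and 1, 1, 3 and 1 of the 8 were called.

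The syntaxins, many of which serve membranes other than the synapse, were mixed. In Heroin-SA 4 of 14 had a positive value (median −0.04), and the injection groups had 9 of 13 in each comparison with Saline-Saline (medians 0.03, 0.02 and 0.04). Of 15 synaptotagmins tested, 14, 11 and 12 were positive in the 3 injection comparisons and 10 in Heroin-SA, with medians of 0.06, 0.03, 0.08 and 0.12. The 7 VAMPs had medians between −0.02 and 0.03, and none was called in the 4 comparisons.

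Between the experiments, 3 of 70 members were lower in all 8 self-administration libraries than in all 16 injection libraries, where 4.07% of genes tested were. Erc2 averaged 3.68 FPKM ± 1.65 (SD, n = 8) against 11.6 ± 2.72 (n = 16), Rab3c 7.27 ± 2.45 against 24.3 ± 4.74, and Sv2a 93.8 ± 8.18 against 127 ± 9.25. Stx16, a syntaxin of the Golgi, and Stx2 were higher in all 8 libraries, at 43.2 ± 1.22 against 35.4 ± 2.14 and 19.4 ± 2.45 against 12 ± 1.03, where 3.12% of all genes were. The experiments also differed in housing, light cycle, surgery and the share of mitochondrial reads (6.8% to 9.1% against 10.0% to 15.9%), so these sources cannot be told apart.

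Partners of the machinery were described by the same call. Of 15 genes that assemble or take apart SNARE complexes, 1, 0 and 3 were called higher after LPS, heroin and both, against Saline-Saline, and 3 in Heroin-SA against Saline-SA, and none lower in any of the 4. Over all genes, 1.21%, 1.4%, 2.99% and 3.04% were called higher in these comparisons. The lists were chosen with earlier results of these data known, so 3 of 15 beside these shares is a description and no test. The partner genes were not refitted without the libraries low in cortical markers or without Saline-SA 3 and 4. Napb, the neuronal β-SNAP that recruits NSF, was called higher in LPS-Saline, LPS-Heroin and Heroin-SA. Doc2a and Cadps2, a calcium sensor and a priming factor of dense-core vesicles, were the other 2 in LPS-Heroin, and Dnajc5 and Stxbp5l the other 2 in Heroin-SA. Of 24 active zone partners, 1, 1, 1 and 2 were called higher and none lower, beside the same shares over all genes. Among them were 1 of the 2 entries named Cask in LPS-Saline (the other had a log2 fold change of −0.15), Ppfibp1 in Saline-Heroin, Rimbp2 in LPS-Heroin and Lin7a in Heroin-SA.

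Vesicle transporters in the list of 21 tested vesicle membrane proteins marked the transmitter types. In LPS-Heroin against Saline-Saline, Slc17a7, the vesicular glutamate transporter of cortical neurons, was called higher, and Slc32a1, the vesicular GABA transporter, Slc17a6, the glutamate transporter of subcortical neurons, and Slc10a4 lower. Slc17a7 is also one of the cortical markers. None of 22 genes of vesicle endocytosis was called in any of the 6 pairwise comparisons by limma-trend, with 0 to 4 of them at an unadjusted p of at most 0.05.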

How the data were processed

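RNA-seq of rat NAc was analysed in 24 libraries, grouped by their labels. Polyadenylated RNA was made into directional libraries. Per the submitters' processing notes, reads were trimmed with fastp, aligned with HISAT2 to rn6 and counted on genes with featureCounts; versions and annotation release are not given in the sources used here, nor whether counting used strand. The authors deposited FPKM per gene and library. Values times gene length were whole multiples of a library-specific step, within a tolerance of 0.01, for 100% of values, which gave reads per gene. Groups were compared with limma 3.58.1 in R 4.3.3 (limma-trend, log2(FPKM + 0.1), mean FPKM of at least 0.5, no covariate) and single genes by two-sided exact permutation in Python. Alternatives were pseudocounts of 0.01 and 1, no filter or a filter of 1 FPKM, quantile normalization, equal medians, limma-voom on recovered reads, no fold limit, a replicate block and leaving out each library; 2 alternatives using cortical markers and 1 using mitochondrial reads were chosen after seeing the data. Members and lists were chosen with earlier results of these data known. Genes described in full were called members whose groups do not overlap, with levels for the highest member of each role and a fixed list of well-known members. The fits were tested on simulated reads. Results of some genes are not reported here. Promoters came from RefSeq (GRCr8), and gene positions from the deposited table (rn6). The labels give 4 libraries a group and 1 week between LPS and heroin; the methods give other numbers.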

Additional observations from a re-analysis of the deposited data

Results flagged for a closer look

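10 values of 35 members lay far from the other 3 libraries of their group, out of 210 group and member combinations examined (4.76%), and chance marks about 1 in 20. In LPS-Saline, Cplx1 was at 318 FPKM in library 4 against 237 to 243 in the others, Syn3 at 5.62 in library 2 against 4.37 to 4.49, and Sv2c at 22.0 in library 3 against 12.4 to 12.7. LPS-Saline 3 was low in cortical markers. In Saline-Saline, Syt6 was at 16.7 FPKM in library 3, also low in these markers, against 11.7 to 12.3 in the others. In Saline-Heroin, Syn3 was at 5.48 FPKM in library 1 against 3.83 to 3.98. In LPS-Heroin, Syn1 was at 151 FPKM in library 4 against 126 to 130, Syt14 at 5.11 in library 2 against 3.77 to 3.91, and Vamp1 at 101 in library 3 against 58.5 to 65.3. In Heroin-SA, library 4, low in cortical markers, had Syt1 at 177 FPKM against 251 to 261 and Syt17 at 4.75 against 18.0 to 18.2. 4 of the 10 values came from libraries low in cortical markers.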

How the results depend on the processing

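Fold changes of members called in the comparisons kept their direction in all 245 refits other than leaving out a library and in all 208 that left one out; 190 and 142 of these also kept the call. Only members already called in these data were refitted, on largely the same libraries. A kept direction was therefore likely beforehand and is no independent support. Counts of called members were 3 (LPS-Saline), 6 (Saline-Heroin) and 7 (LPS-Heroin) against Saline-Saline, 0 for LPS-Heroin against LPS-Saline, 1 against Saline-Heroin, 5 for Heroin-SA, 0 for LPS averaged, 2 for heroin averaged and 0 for the interaction. With no limit on the fold change they were 10 in LPS-Saline, 13 in LPS-Heroin, 3 against Saline-Heroin, 10 in Heroin-SA, 9 for LPS averaged and 9 for heroin averaged. Limma-voom gave 8 in Heroin-SA. Leaving out the libraries lowest in cortical markers, an alternative chosen after seeing the data, gave 3 in Saline-Heroin, 1 in LPS-Heroin, 2 against Saline-Heroin, 1 for heroin averaged and 1 for the interaction. The cortical marker level as a covariate, also added, gave 2 in Saline-Heroin, 0 in LPS-Heroin, 9 in Heroin-SA and 0 for heroin averaged. Without Saline-SA 3 and 4, the libraries highest in mitochondrial reads, 2 were called in Heroin-SA, also an added alternative. Leaving out 1 library gave 1 to 4 in LPS-Saline, 1 to 6 in Saline-Heroin, 4 to 12 in LPS-Heroin, 0 to 3 against LPS-Saline, 1 to 3 against Saline-Heroin, 5 to 11 in Heroin-SA, 0 to 3 for LPS averaged, 1 to 4 for heroin averaged and 0 to 2 for the interaction. Counts moved by over 1.5 times without Saline-Saline 3 or LPS-Saline 2 in LPS-Saline (1 each); Saline-Saline 1 (2) or Saline-Saline 3, Saline-Heroin 1 or 3 (1 each) in Saline-Heroin; LPS-Heroin 1 or 2 (4 each) or 3 (12) in LPS-Heroin; LPS-Saline 1, 2 or 4 (1 each) or LPS-Heroin 3 (3) against LPS-Saline; Saline-Heroin 1 or 2 or LPS-Heroin 3 (2 each) or LPS-Heroin 2 (3) against Saline-Heroin; and Saline-SA 1 (8), Heroin-SA 3 (11) or 4 (9) in Heroin-SA. The causes were not tested beyond these refits, and the shares of all genes called in them are not given. Same-numbered libraries correlated by −0.15 to 0.15 in their deviations from group means. In LPS-Saline against Saline-Saline, 3 of 4 libraries correlated best with their own number. In LPS-Heroin 2 of 4 did so against Saline-Saline and 2 against LPS-Saline, and in each remaining pairwise comparison 0 did. These values cannot show whether the numbers pair the rats or mark a batch. With the number as a replicate block, 5 members were called in LPS-Saline, 3 in Saline-Heroin, 9 in LPS-Heroin, 1 against LPS-Saline and 4 in Heroin-SA. Members that averaged below 0.5 FPKM in a comparison, such as Cplx4, were not tested in it.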

Other observations

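Sv2b, a vesicle glycoprotein like Sv2a that the table types as a processed transcript, averaged 51.1 FPKM over the 24 libraries. Its group mean was 38.4 FPKM in Saline-Saline and 55.1 FPKM in LPS-Saline, then 56.6 in Saline-Heroin, 72.3 in LPS-Heroin, 35.4 in Saline-SA and 48.5 in Heroin-SA. The order of the 4 injection groups is that of Stx1a (38.5, 51.8, 57.9 and 67.6 FPKM), a likeness noticed after the values were seen. The summed cortical glutamatergic markers had the same order, with group means of 287, 418.5, 426 and 538 FPKM. No test of Sv2b is given, and how these levels relate was not tested.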
